A study of Mus musculus with 7 samples.

Results

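The cell cycle and DNA replication genes described here are 39 genes that drive a cell from rest into division or that are made in quantity while it divides. They were chosen by name and found as the non-control probes that carry those names. All 39 were on the array, among 34797 gene names, with 60 probes. A gene counts as measured where a probe of it was well above background on at least 3 of the 7 arrays, and 31 of the 39 genes, of 18231 genes in all, were measured.

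Total RNA of naive CD8 T cells, sorted from mouse lymph nodes as CD8b+ and CD44low, was hybridised to 1 single-colour array per sample. The Lck-off group held 4 samples. Its mice were OT-1het, Rag-/- and Lck-/-, and a knocked-in Lck that depends on doxycycline had been removed by 7 days without the drug in the diet. The WT group held 3 samples from OT-1het, Rag-/- mice. All 7 samples therefore carried 1 transgenic T cell receptor, OT-1, which recognises an ovalbumin peptide, in mice without Rag that cannot rearrange other receptors. Lck is the kinase that starts signalling from that receptor. No mice of the Lck-/- genotype still on doxycycline are among the samples, so genotype, withdrawal of the drug and loss of Lck cannot be told apart, and the labels state no diet for the WT mice. The samples are called biological replicates by the submitters, who do not say whether each was 1 animal, so p-values measure the spread between these samples.

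The arrays each had 42.5% to 48.6% of their probes well above background, and 7 arrays limit the precision. All 8 T cell markers, Cd8a and Cd8b1 among them, were detected on every array. Lck itself, read by 1 probe, was lower in Lck-off (-0.37, SE 0.09, adjusted p = 0.0493 by limma). Whether that probe lies in the altered part of the gene is unknown here, and the call was lost in 6 of 7 fits without 1 array. Levels below are on a log2 scale on which 0 is the 75th percentile of the array's intensities. Differences are log2 levels in Lck-off minus those in WT, and a gene is called where limma's Benjamini-Hochberg adjusted p over all 18231 genes was under 0.05.

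Naive T cells rest outside the cycle in G0. When the receptor is engaged, cyclin D with CDK4 or CDK6 and then cyclin E with CDK2 phosphorylate the retinoblastoma family, which frees E2F factors to switch on the genes of DNA replication. A later wave, driven by FOXM1 and the MuvB complexes, switches on the genes of G2 and mitosis, and in resting cells the DREAM complex holds both waves down. Many of the gene products are used to count dividing cells, Ki-67 and topoisomerase II alpha among them.

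Transcripts of most of these genes were present in the resting cells. Of the 39 genes, 6 (15.4%) had no probe well above background on any array, against 13207 of 34797 gene names (38%). These 6 were Cdk6, a partner of cyclin D, Ccne2 (cyclin E2), Ccna2 (cyclin A2, of S phase and G2), Cdk1, the kinase of mitosis, Aurkb (aurora kinase B) and Bub1, a kinase of the spindle checkpoint. Close relatives differed in detection: Cdk4 was detected on all 7 arrays and Cdk6 on none, and Ccne1 on all 7 and Ccne2 on none. Any probe of a gene could count as detection. Cdk6 and Ccne2 had 1 probe each, Cdk4 had 3 and Ccne1 had 2, so the relatives were not read on equal terms. A further 2 genes were detected on 1 array each. Cdkn1a (p21), a CDK inhibitor, was well above background only on Lck-off replicate 4, at -2.91, while that probe read -5.30, -4.72 and -5.52 on Lck-off replicates 1 to 3 and -5.63, -5.59 and -5.78 in WT. Cdc6, which loads the replicative helicase, was well above background only on Lck-off replicate 1, at -1.46, and the same probe read between -6.26 and -4.55 on the other Lck-off arrays and between -5.74 and -5.30 on the WT arrays. Neither gene was tested, because each had only 1 array above background. For Cdk6 the single probe read -5.35, -4.41, -4.45 and -4.02 in Lck-off and -3.83, -3.33 and -4.09 in WT, none of them well above background. The number of the 39 genes detected was 29, 29, 30 and 30 on the Lck-off arrays and 31 on each of the 3 WT arrays.

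**Figure D1:**
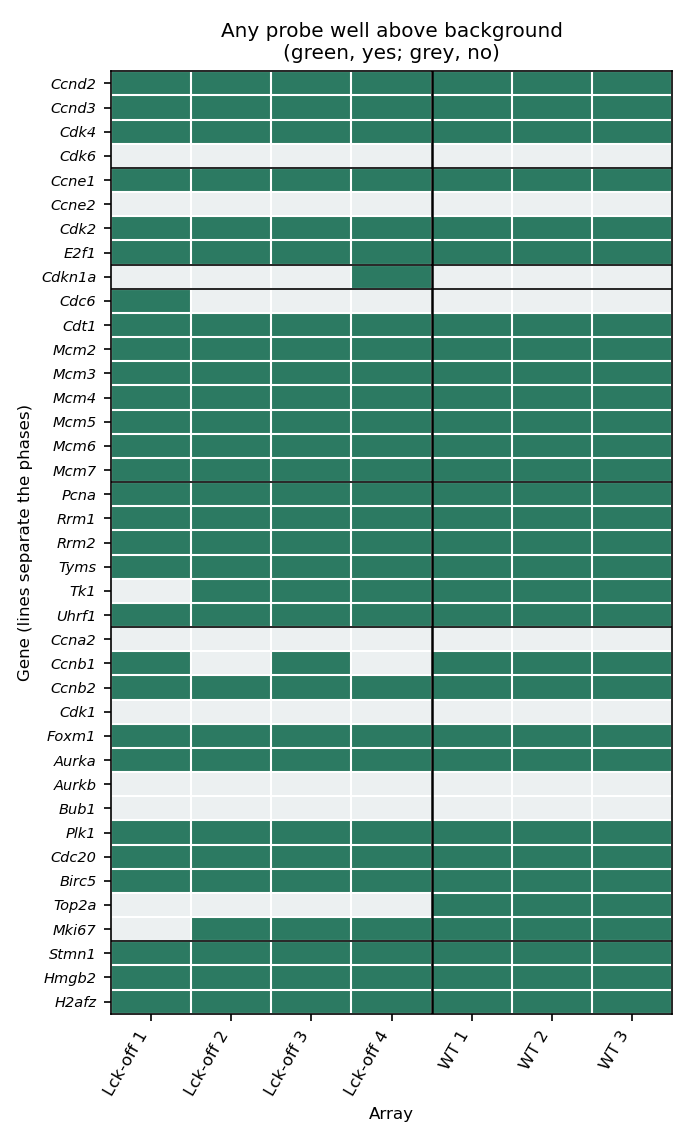
Detection of the 39 genes (down the page, in order of phase, with lines between phases) on each array (across, Lck-off left of WT). Green marks a gene with a probe well above background; Top2a is green on the 3 WT arrays and grey on the 4 Lck-off arrays, and 27 of the 39 genes are green on all 7.

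Most measured genes read lower in Lck-off, most by small amounts. Of the 31 genes, 5 were called lower in Lck-off, where 4.57% of all tested genes were, 1 was called higher, where 3.80% were, and 25 were not called. Of the 5, Top2a was kept through the WT arrays alone, so the filter favoured a lower reading in Lck-off. With detection on all 7 arrays required, 6 of 27 genes were called lower and 1 higher, where 863 and 721 of all 16065 genes were. Over the 18231 genes of the main comparison, 8.38% were called in either direction. Differences were below 0 for 28 and above 0 for 3, with a median of -0.27, against a median of -0.01 over all genes, of which 51.7% were below 0. The median was -0.15 in the deposited value table and -0.17 after another background correction (normexp). The sizes of the called falls also shrank in both: Stmn1 stood at -1.65 and -1.67, Uhrf1 at -0.76 and -0.80, Mki67 at -0.64 and -0.68, Birc5 at -0.63 and -0.67 and Top2a at -0.32 and -0.38, so that Stmn1 alone stayed past 2-fold. The 4 Lck-off arrays all lay below the 3 WT arrays for 12 of the 31 genes, where this held for 12.0% of all genes, and all lay above them for 1, where this held for 9.80%. The remaining 18 overlapped. In RNA from whole samples, fewer dividing cells and less RNA per cell cannot be told apart.

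**Figure D2:**
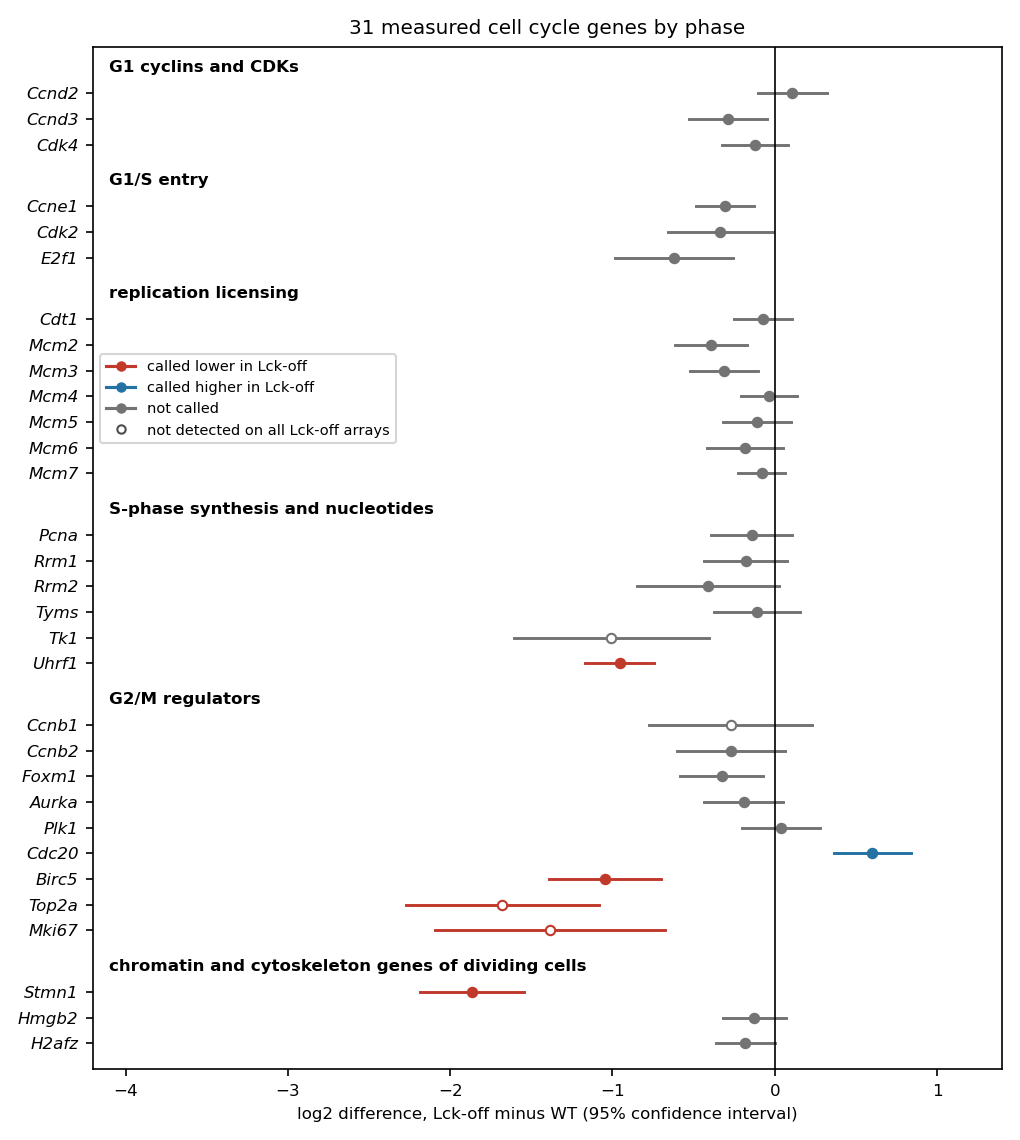
Difference of each of the 31 measured genes (down the page, by phase) on the log2 scale, Lck-off less WT, with its 95% confidence interval from limma. Red genes were called lower in Lck-off, the blue gene (Cdc20) was called higher, grey genes were not called, and open points mark genes not well above background on all 4 Lck-off arrays; all 7 licensing genes lie just below 0, and the 6 called genes are among the S phase, G2/M and cytoskeleton genes.

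None of the 3 measured G1 cyclins and CDKs was called. Ccnd2, which encodes cyclin D2, read 6.06, 5.99, 6.05 and 6.07 in Lck-off and 5.85, 5.83 and 6.13 in WT. The Lck-off arrays lay inside the WT range (difference 0.11, 95% confidence interval -0.10 to 0.32, adjusted p = 0.581 by limma). Ccnd3, for cyclin D3, read 6.30, 6.52, 6.32 and 6.22 in Lck-off and 6.51, 6.60 and 6.78 in WT. Lck-off replicate 2 lay above the lowest WT array, and the difference of -0.29 did not pass the test (SE 0.10, adjusted p = 0.155 by limma). Its other kept probe gave -0.36 without overlap (adjusted p = 0.169 over all kept probes by limma). Cdk4, their kinase partner, read 5.18, 5.37, 5.36 and 5.13 in Lck-off and 5.43, 5.40 and 5.33 in WT. These overlapped. Its 3 kept probes gave -0.12 each. On the probes not used the groups did not overlap, and neither probe passed (adjusted p = 0.395 and 0.441 over all kept probes by limma). Within row 1 of the slide, which held Lck-off replicates 2 and 3 and WT replicate 3, Ccnd2 stood at -0.11 and Cdk4 at 0.04, the opposite sign to the pooled values.

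The 3 measured genes of entry into S phase all read lower, none past the threshold. E2f1, the activator E2F named first in the family, read -1.75, -1.22, -1.33 and -1.45 in Lck-off and -0.75, -0.64 and -1.05 in WT. The groups did not overlap, and the difference of -0.62 just missed the threshold (SE 0.15, adjusted p = 0.0535 by limma). E2f1 was called in 7 of 20 alternatives, among them normexp, quantile and median scaling and the deposited table. It was -0.22 within row 1 and -0.90 within row 2, which held the other 4 arrays. Ccne1, for cyclin E1, read 2.69, 2.63, 2.68 and 2.57 in Lck-off and 2.89, 3.07 and 2.89 in WT, again without overlap (-0.31, SE 0.08, adjusted p = 0.0535 by limma), and it was called in 4 of 20 alternatives. Its other kept probe gave -0.20 with overlapping groups (SE 0.12, adjusted p = 0.431 over all kept probes by limma). Cdk2, the kinase that cyclin E activates, stood at -0.34 with overlapping groups (adjusted p = 0.216 by limma).

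The licensing genes form a ring-shaped helicase, MCM2 to MCM7, and its loading factors, which mark origins before S phase. All 7 measured ones read lower in Lck-off and none was called, with a median of -0.11 and a range from -0.39 to -0.03. Mcm2 read 2.06, 2.22, 1.93 and 1.96 in Lck-off and 2.38, 2.38 and 2.55 in WT. No Lck-off array reached the lowest WT array, and the difference was -0.39 (SE 0.10, adjusted p = 0.0502 by limma). Mcm3 read 3.99, 3.90, 3.76 and 3.71 in Lck-off and 4.10, 4.14 and 4.22 in WT. It too had no overlap (-0.31, SE 0.09, adjusted p = 0.0845 by limma), and its second probe gave -0.30. Mcm2 was called in 7 and Mcm3 in 4 of 20 alternatives, both with quantile scaling and in the deposited table. Mcm7 had no overlap either at a difference of only -0.08, while Mcm4, Mcm5, Mcm6 and the loading factor Cdt1 overlapped at between -0.18 and -0.03. The largest and the smallest of these differences thus belonged to 2 subunits of the same ring, Mcm2 and Mcm4.

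Among the 6 genes of S phase synthesis and nucleotides, Uhrf1 fell and 5 did not pass. Uhrf1 encodes the protein that brings the maintenance DNA methyltransferase to newly copied DNA. It read 0.51, 0.55, 0.74 and 0.47 in Lck-off and 1.54, 1.43 and 1.60 in WT. The arrays of each group lay close together with a wide gap between groups: the fall was 0.96 on the log2 scale, 1.94-fold lower (difference -0.96, SE 0.09, adjusted p = 0.00131 by limma). It was -0.96 within row 1 and -0.99 within row 2, and it was called without each array in turn. Its probe lies at chr17:56462770-56462829 (mm9, plus strand), from base 3430 of the transcript; a second probe stayed near background on all 7 arrays. Tk1, the salvage thymidine kinase of S phase, read -3.62, -2.55, -3.30 and -3.39 in Lck-off and -1.93, -2.30 and -2.40 in WT. It was near the background, undetected on Lck-off replicate 1, and just missed the threshold without overlap (-1.01, SE 0.26, adjusted p = 0.0582 by limma). It stood at -0.39 in the deposited value table and -0.40 after normexp, and it was called in 6 of 19 alternatives: in the deposited table, with quantile and median scaling, with trended and robust moderation, with array weights and without Lck-off replicate 2 (-1.23, adjusted p = 0.00874 by limma). Other probes of Tk1 were not kept and did not show the fall. The probe at chr11:117683390-117683449 (mm9) was well above background on 2 Lck-off arrays and no WT array, with means of -3.75 in Lck-off and -3.76 in WT. The probe at chr11:117685654-117685713 was well above background on no array, with means of -4.74 in Lck-off and -5.55 in WT. Pcna, the sliding clamp of the replication fork, read 4.84, 5.10, 5.0 and 4.93 in Lck-off and 4.93, 5.11 and 5.28 in WT. Its groups overlapped, and the interval of the difference ran from -0.39 to 0.11. The ribonucleotide reductase subunits Rrm1 and Rrm2 stood at -0.18 and -0.41 and the thymidylate synthase Tyms at -0.11, all with overlap.

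Of the G2 and mitosis genes, 9 of 13 were measured, and 3 were called lower, 1 higher and 5 not. Top2a, the topoisomerase that untangles sister chromatids, was well above background on 3 of 3 WT arrays and on none of the 4 Lck-off arrays, so that it was kept through the WT arrays alone. It read -5.31, -4.51, -4.19 and -4.37 in Lck-off and -2.88, -2.83 and -3.04 in WT. Since the Lck-off values are not well above background, no size is given for the change. Each was set to the dimmest signal of any probe flagged well above background on its array, or kept where higher. WT was then 2.03-fold higher. This is not a firm limit, because probes not flagged can read above that signal. On Lck-off replicate 4 the Cdk6 probe read -4.02, not flagged, where the dimmest flagged signal was -4.40. Top2a stood at only -0.32 in the deposited value table and -0.38 after normexp. The fit's adjusted p of 0.00766 by limma rests on Lck-off values not well above background, in a gene kept by the group in which it was high. The fitted difference, which is not a measured size, was -1.31 within row 1 and -1.99 within row 2, and its Lck-off values set no order against the other falls. Its single probe lies at chr11:98855522-98855581 (mm9, minus strand).

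Mki67, the gene of Ki-67, read -3.96, -3.02, -3.61 and -3.22 in Lck-off and -2.27, -1.47 and -2.47 in WT. The groups did not overlap, WT replicate 2 was the highest array, and Lck-off replicate 1 was not well above background. The difference was -1.38 (SE 0.30, adjusted p = 0.0338 by limma), a 2.61-fold lower level. A second probe gave -1.91 (adjusted p = 0.0256 over all kept probes by limma), but it was well above background on only 2 of 4 Lck-off arrays. The call was not firm: it was lost in 6 of 7 fits without 1 array (limma's adjusted p ranged over 0.0400 to 0.0917) and in a fit with slide row as a term (adjusted p = 0.0673 by limma). It stood at -0.85 within row 1 and -1.72 within row 2, and at -0.64 in the deposited value table.

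Birc5, which encodes survivin of the chromosomal passenger complex, read -2.0, -1.60, -1.61 and -1.84 in Lck-off and -0.84, -0.44 and -0.87 in WT. Every Lck-off array lay well under every WT array, and the level was 2.07-fold lower (-1.05, SE 0.15, adjusted p = 0.00558 by limma). The difference was -0.74 within row 1, -1.28 within row 2 and -0.63 in the deposited value table. The probe lies at chr11:117716978-117717037 (mm9, plus strand), and 2 probes nearer the start of the transcript stayed near background throughout. Aurkb, the kinase of the same complex, was undetected throughout.

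Cdc20 went the other way. It encodes the activator of the anaphase-promoting complex, the ubiquitin ligase that ends metaphase. It read 1.67, 1.80, 1.56 and 1.72 in Lck-off and 0.98, 1.00 and 1.28 in WT. All Lck-off arrays lay above all WT arrays, by 1.52-fold (0.60, SE 0.10, adjusted p = 0.0124 by limma). The difference was 0.40 within row 1 and 0.71 within row 2. The call was lost without WT replicate 2 (adjusted p = 0.0551 by limma), with the array median as the scale (0.58, adjusted p = 0.109 by limma) and with no filter on dim probes (adjusted p = 0.0667 by limma). The other G2 and mitosis genes were not called. Foxm1, the transcription factor of the mitotic wave, read -2.99, -2.98, -2.62 and -2.97 in Lck-off and -2.53, -2.57 and -2.59 in WT. Lck-off replicate 3 stood apart from the other 3 and came close to the WT arrays without overlap (-0.33, SE 0.11, adjusted p = 0.127 by limma; -0.10 in the deposited value table). Ccnb1 and Ccnb2, the B-type cyclins, stood at -0.27 each, Aurka at -0.19 and Plk1, the polo kinase of mitosis, at 0.04, all with overlapping groups; Ccnb1 was well above background on 2 of 4 Lck-off arrays.

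Stmn1 was called lower by its brightest probe. It encodes stathmin, which takes microtubules apart and is abundant in dividing cells. It read 1.02, 0.88, 0.77 and 0.74 in Lck-off and 2.42, 2.93 and 2.81 in WT, a 3.65-fold lower level with no overlap (-1.87, SE 0.14, adjusted p = 0.000578 by limma). The difference was -1.99 within row 1 and -1.79 within row 2. This value comes from the probe brighter on average over the 7 arrays, which was the brighter of 2 on the WT arrays and the dimmer on all 4 Lck-off arrays, so that WT levels set the choice. It lies at chr4:134029695-134029754 (mm9, plus strand), from base 996 of the transcript. The other, at chr4:134029355-134029414 from base 656, read 1.21, 1.15, 1.38 and 1.30 in Lck-off and 1.52, 1.76 and 1.58 in WT. It showed no overlap either but a difference of only -0.36 (SE 0.09), which did not pass over all kept probes (adjusted p = 0.0686 by limma). The mean of both probes gave -1.11, which was called. The size of the fall therefore depended on the stretch of transcript read, and why the probes differ was not tested. The chromatin genes of the same phase list moved little: Hmgb2, a DNA-bending protein, stood at -0.13 and H2afz, the histone variant H2A.Z, at -0.18, both with overlap. The other kept H2afz probe gave -0.24 without overlap (SE 0.08, adjusted p = 0.136 over all kept probes by limma).

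**Figure D3:**
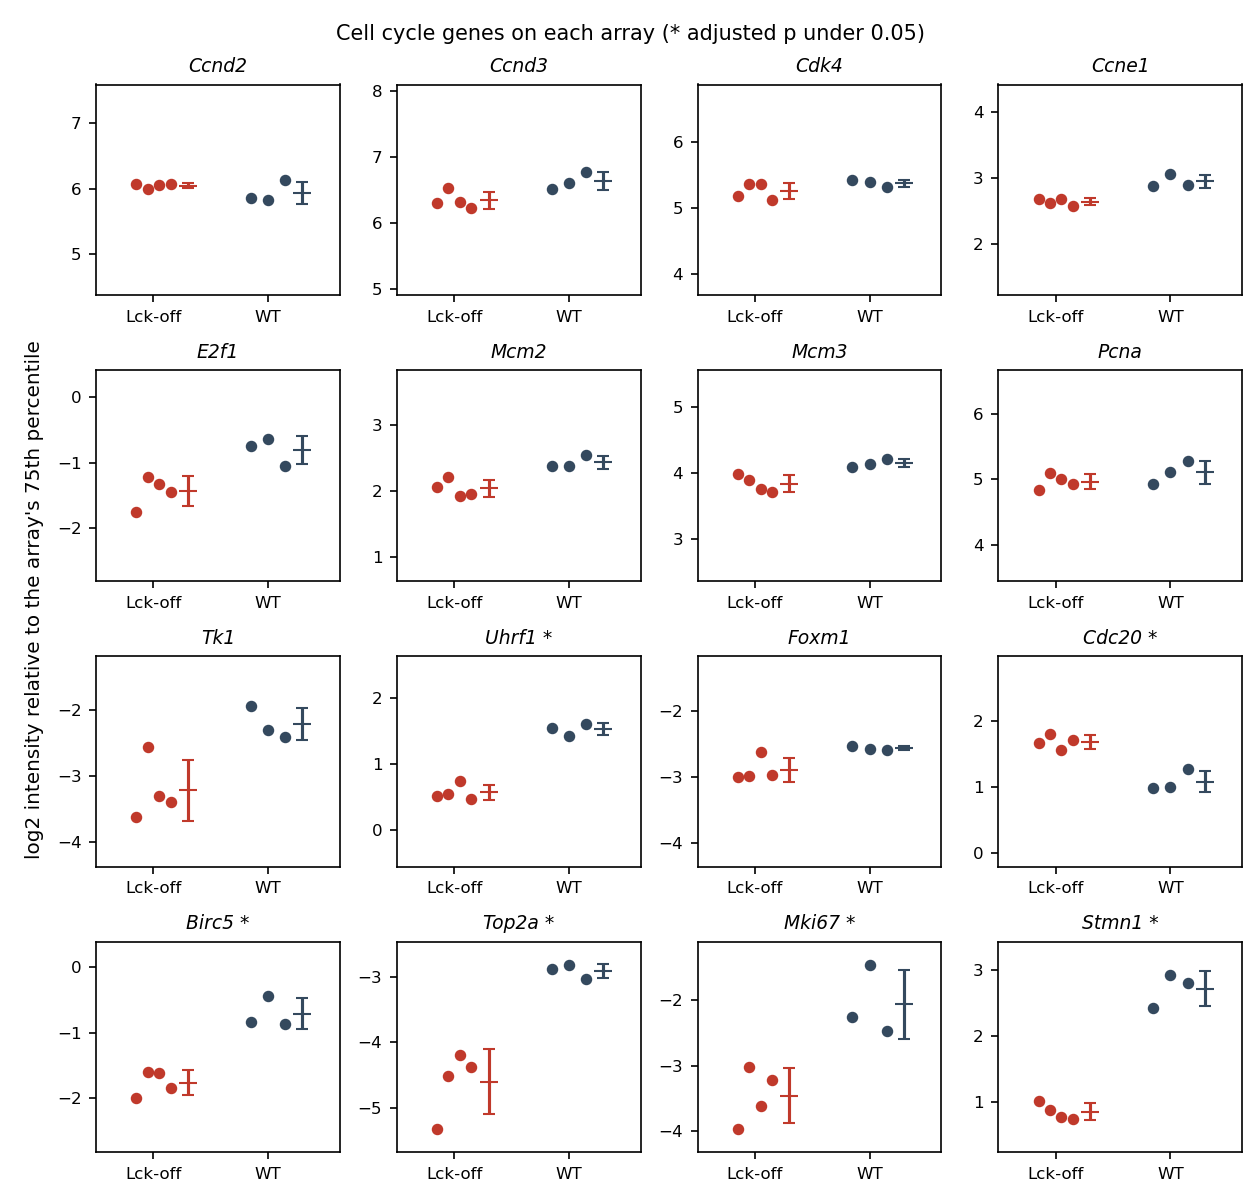
Levels of 16 of the genes on each array, as log2 intensity with the array's 75th percentile at 0 (y axis, of the same length in every panel), with Lck-off in red left of WT in blue; the bar beside the points is the mean ± SD over 4 or 3 arrays, and an asterisk marks a gene called by limma. Stmn1, Birc5 and Uhrf1 show a clear gap with Lck-off below WT, Cdc20 shows Lck-off above WT, and Ccnd2, Cdk4 and Pcna overlap. Top2a also shows a gap, but it was well above background on no Lck-off array and was kept through the WT arrays alone.

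Stmn1 and Cdc20 lie on the chromosome of Lck. The Stmn1 probe was 4.8 Mb and the Cdc20 probe 11.1 Mb from the Lck probe on chromosome 4 (mm9). Of 316 genes within 10 Mb of the Lck probe, 64 (20.3%) were called, 40 lower and 24 higher, against 8.38% of all genes. The part of this position in the values of both genes was not tested. Uhrf1, Birc5, Top2a and Mki67 lie on chromosomes 17, 11, 11 and 7.

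Promoters of the genes are shown because E2F, DREAM and MuvB complexes are known to act through short motifs near the start of transcription. Of the 39 genes, 32 had an entry in RefSeq's promoter table (GRCm38.p6), with 36 promoters of 250 bases before and 50 after the start. Both strands were searched for the E2F site (TTTCCCGC, TTTGGCGC, TTTCGCGC or TTTGCCGC), for the cell cycle genes homology region, or CHR (TTTGAA or TTCGAA), and for the CCAAT box, with overlapping matches counted. Among all 32851 promoters of that table, 2.3% held the E2F site, 19.2% the CHR and 37.4% the CCAAT box. The E2F site was found in 6 of 7 licensing genes with an entry, 1 of 6 genes of S phase synthesis and 1 of 10 G2 and mitosis genes. The CHR was found in 8 of 10 G2 and mitosis genes, 2 of 7 licensing genes and none of the 6 genes of S phase synthesis. The CCAAT box was found in 9 of 10, 5 of 7 and 4 of 6 genes of these lists in that order. The 250 bases before the start, 5′ to 3′ on the gene's strand, are printed with matches in capitals for 3 called genes with the CHR or the E2F site that fell, for Cdc20, which rose, for Birc5, which fell, and for Plk1, which was not called. They are Top2a (chr11:99024190-99024439, minus strand), Mki67 (chr7:135716380-135716629, minus strand), Cdc20 (chr4:118437344-118437593, minus strand), Plk1 (chr7:122159185-122159434, plus strand), Birc5 (chr11:117848987-117849236, plus strand) and the second of 2 promoters of Uhrf1 (chr17:56304063-56304312, plus strand).
Top2a: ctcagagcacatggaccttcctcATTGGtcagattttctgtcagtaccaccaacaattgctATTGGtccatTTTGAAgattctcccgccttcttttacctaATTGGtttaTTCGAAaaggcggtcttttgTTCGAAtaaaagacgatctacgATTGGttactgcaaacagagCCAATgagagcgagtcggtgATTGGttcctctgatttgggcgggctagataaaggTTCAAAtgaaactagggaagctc
Mki67: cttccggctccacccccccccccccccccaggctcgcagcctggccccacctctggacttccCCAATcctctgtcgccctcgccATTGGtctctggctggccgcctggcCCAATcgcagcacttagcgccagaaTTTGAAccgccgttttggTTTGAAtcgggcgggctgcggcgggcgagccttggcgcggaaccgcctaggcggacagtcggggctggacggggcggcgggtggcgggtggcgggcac
Cdc20: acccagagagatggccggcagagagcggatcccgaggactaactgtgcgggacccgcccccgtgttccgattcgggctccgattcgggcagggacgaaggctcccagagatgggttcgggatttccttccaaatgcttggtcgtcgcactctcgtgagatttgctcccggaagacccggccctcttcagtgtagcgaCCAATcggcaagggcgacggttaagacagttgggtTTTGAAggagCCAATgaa
Plk1: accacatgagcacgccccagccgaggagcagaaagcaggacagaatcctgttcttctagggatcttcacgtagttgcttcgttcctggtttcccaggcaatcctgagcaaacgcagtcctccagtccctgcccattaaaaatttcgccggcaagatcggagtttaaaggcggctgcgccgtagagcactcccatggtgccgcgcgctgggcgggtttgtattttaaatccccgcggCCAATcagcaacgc
Birc5: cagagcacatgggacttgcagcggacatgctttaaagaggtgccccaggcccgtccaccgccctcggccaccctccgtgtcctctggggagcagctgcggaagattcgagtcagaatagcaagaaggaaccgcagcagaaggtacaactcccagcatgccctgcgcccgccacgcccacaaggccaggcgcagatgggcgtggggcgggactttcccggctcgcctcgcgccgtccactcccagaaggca
Uhrf1: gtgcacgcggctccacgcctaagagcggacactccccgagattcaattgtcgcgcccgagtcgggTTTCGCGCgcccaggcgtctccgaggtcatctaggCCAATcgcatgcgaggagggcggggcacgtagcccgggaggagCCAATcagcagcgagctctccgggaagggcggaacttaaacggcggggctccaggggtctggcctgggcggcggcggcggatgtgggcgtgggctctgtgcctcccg

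Top2a held 4 CHR and 6 CCAAT matches and Mki67 2 CHR and 3 CCAAT matches, and both were lower in Lck-off. Cdc20 held 1 CHR match, 18 bases before the start, and 2 CCAAT matches, and it was higher. Plk1 held 1 CCAAT match in the printed bases and 1 CHR match 31 bases after the start, and it was not called. Birc5 held none of these letters in the window and was lower. The second Uhrf1 promoter held 1 E2F match (TTTCGCGC) and 2 CCAAT matches, and the first held 3 CCAAT matches alone. Over the genes with an entry, the CHR was found in 2 of 4 called lower, in the 1 called higher and in 6 of 22 not called. The E2F site was found in 1 of 4, 0 of 1 and 6 of 22 of the same sets. The 2 called lower with the CHR were Top2a and Mki67. Top2a was kept through the WT arrays alone, and the call of Mki67 was lost in 6 of 7 fits without 1 array. A match is a string of letters and not a shown binding site.

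A further 128 genes of the same pathway were listed by role, and 104 of them were measured, of which 16 were called lower, 5 higher and 83 not, with a median of -0.12, where 4.57% and 3.80% of all genes were called lower and higher. The replisome and S phase list had all 24 genes measured, with 5 called lower and none higher and a median of -0.13. Chaf1a, the large subunit of the chromatin assembly factor that places histones behind the fork, was called lower. It read -2.51, -2.86, -2.90 and -2.79 in Lck-off and -1.68, -1.30 and -1.71 in WT, without overlap (-1.20, SE 0.14, adjusted p = 0.00269 by limma; -0.48 in the deposited value table). The leading-strand DNA polymerase epsilon had 2 called subunits, Pole2 at -0.74 (adjusted p = 0.00328 by limma) and the catalytic Pole at -0.60 (adjusted p = 0.00881 by limma). Pole lost its call when its kept probes were averaged (-0.35). Pola1, the catalytic subunit of the priming polymerase, fell by 0.30 and Rfc1, the clamp loader's large subunit, by 0.34 on the log2 scale, calls lost in 7 and 6 of 7 repeats without 1 array. Among 15 measured licensing and origin firing genes of 18, only Gins1, of the GINS complex of the replicative helicase, was called, at -0.48.

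The mitosis and cytokinesis list had 26 of 43 genes measured and 12 undetected on every array. It had 6 called lower and 2 higher, where 4.57% and 3.80% of all genes were, and a median of -0.26. Among the called ones were Cdca8 (borealin, a partner of survivin in the passenger complex), at -0.48, the centromeric histone Cenpa, at -0.52, and Ndc80, of the outer kinetochore, at -0.38. Of 4 measured condensin genes, 1 was called lower and 1 higher. The kleisin subunit Ncaph read -1.15, -1.10, -1.42 and -1.47 in Lck-off and -0.82, -0.34 and -0.30 in WT (-0.80, adjusted p = 0.0236 by limma). The ATPase subunit Smc4 read 6.13, 5.80, 6.07 and 5.98 in Lck-off and 5.20, 5.44 and 5.38 in WT (0.66, adjusted p = 0.00959 by limma). Neither had overlapping groups. Smc2 (-0.27) and Ncapd2 (-0.25) were not called, and Ncapg was not measured. Kif23, a kinesin of the central spindle, was higher by 0.52. Without 1 array, the call was lost in 3 of 7 repeats each for Cdca8, Kif23 and Cenpa, in 4 for Ncaph and in 7 for Ndc80, while Smc4 was called in all 7.

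Regulators of G1 moved in both directions, with a median of 0.06. Of 26 measured, 2 were called lower and 3 higher, where 4.57% and 3.80% of all genes were. E2f2, an activator E2F, rose the most. It read 3.51, 4.19, 4.02 and 4.06 in Lck-off and 2.24, 2.27 and 2.30 in WT, 3.19-fold higher without overlap (1.67, SE 0.16, adjusted p = 0.00136 by limma). The activator E2Fs thus differed in sign, with E2f3 at -0.71 (adjusted p = 0.0369 by limma) and E2f1 at -0.62, not called. E2f3 lost its call when all its probes were averaged (-0.32, adjusted p = 0.171 by limma). Tfdp1, the DNA-binding partner of E2F proteins, stood at -0.47, and Rbl1 (p107), a pocket protein that restrains E2F, at 0.58. Cdkn1b (p27), a CDK inhibitor of resting lymphocytes, was higher by 0.31. Without 1 array the calls of Cdkn1b and Tfdp1 were lost in 7 of 7 repeats and those of Rbl1 and E2f3 in 5 of 7, while E2f2 was called in all 7. Of 13 measured genes of the p53 pathway, 2 were called lower. Bbc3, which encodes the death-promoting protein PUMA, read 2.19, 1.62, 2.03 and 2.33 in Lck-off and 3.79, 3.63 and 3.80 in WT (-1.70, SE 0.17, adjusted p = 0.00144 by limma). Phlda3 stood at -0.36 and lost its call in 6 of 7 repeats without 1 array.

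**Figure D4:**
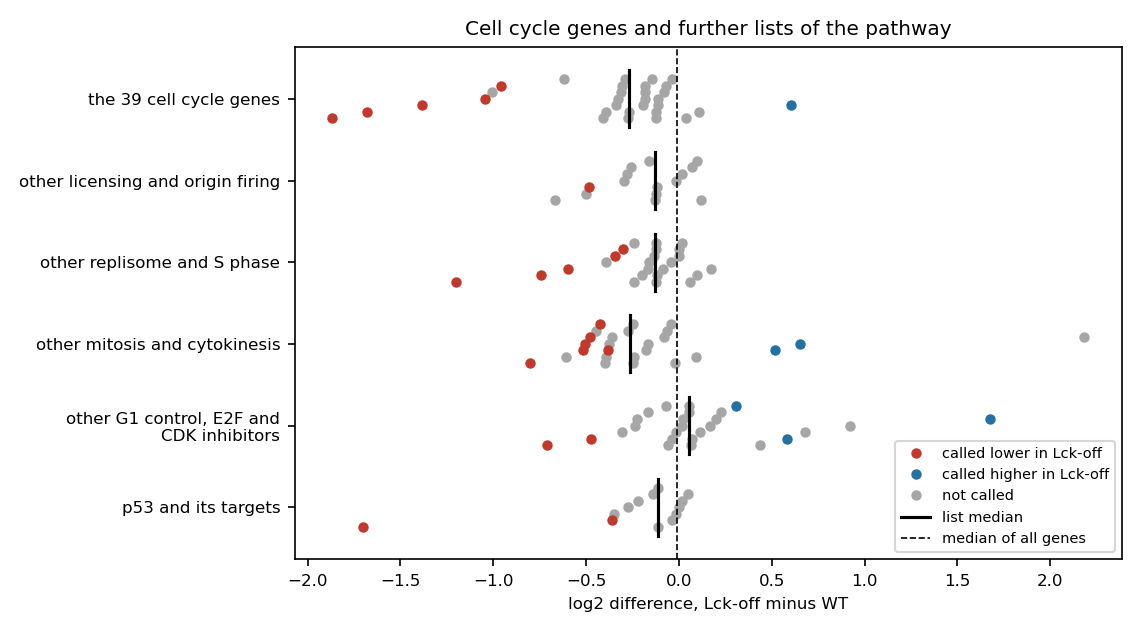
Differences of single genes on the log2 scale (x axis, Lck-off minus WT) for the 31 measured cell cycle genes at the top and for 5 further lists of the pathway below. Each point is a gene, black bars are list medians and the dashed line is the median of all genes (-0.01); the G1 list is the one whose median (0.06) lies above 0, with E2f2 at 1.67.

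Markers of other cells were read beside these values. Of 5 measured markers of immature thymocytes of 8, only Dntt, the terminal transferase, was called (2.23, adjusted p = 0.000328 by limma), while Rag1 and Ptcra were not detected on any array. The summed linear level of that list was 70.7 to 88.4 in Lck-off and 29.8 to 32.7 in WT, a sum that holds Dntt. The other 4 measured markers were not called. Cd24a, of the same list, stood at -1.55 without overlap and was not called (adjusted p = 0.0647 by limma). All 7 measured markers of macrophages, monocytes and neutrophils, of 13 on the array, stood above 0 and 1, C1qb, was called (0.59), with sums of 50.8 to 60.4 in Lck-off and 41.4 to 58.4 in WT. These sums are mostly Itgam, at a mean of 5.61 in Lck-off and 5.47 in WT, which overlapped and was not called (0.14). C1qa and C1qc stood at 1.38 and 1.75, not called, and each was detected on 4 of 4 Lck-off and 1 of 3 WT arrays. Of 8 measured dendritic cell markers of 11, 7 stood above 0 and 1, Ccr9, was called (0.69), with sums of 306.4 to 364.9 in Lck-off and 281.1 to 299.3 in WT. These sums are mostly Siglech, at a mean of 8.10 in Lck-off and 8.00 in WT and not called (0.10), and next Ccr9, at 5.72 and 5.03. The T cell marker Cd3e read as bright as Siglech, at 8.02 in Lck-off and 8.06 in WT. Whether the Siglech and Ccr9 signals come from dendritic cells was not tested, so the sums do not measure such cells. Flt3 stood at -0.69, not called, and Clec9a was not detected on any array. The class II genes H2-Ab1, H2-Eb1, Cd74 and H2-Aa stood at 1.40, 1.26, 1.12 and 1.07, none of them called. None of the measured B cell, NK cell, CD4 and regulatory T cell, red cell and platelet or stromal markers was called, and the B cell genes Ms4a1, Pax5 and Ebf1 were not detected on any array. Of the 8 T cell markers, only Lat was called, higher at 0.27 (adjusted p = 0.0466 by limma). Cd8a (0.28) and Cd8b1 (0.25) were higher and Cd247 (-0.22) lower without overlap, none of them called. The part of other cells in the differences of the cell cycle genes was not tested.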

How the data were processed

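RNA of 4 Lck-off and 3 WT samples was measured on 1 slide of single-colour (Cy3) arrays, from 50 ng each per the labels' protocols. The authors made the processed intensity, per the file headers, with Feature Extraction 10.7.3.1 for design 028005 (probe positions on mm9): background subtracted and detrended within an array, with no scaling between arrays. The deposited mean and local background intensity values are as scanned. Flags come from the same software per the file headers (well above background, saturated, non-uniform, and the type of spot). The authors' value table holds log2 values, judged by their range, and the submitters' processing notes name limma without its steps. Its column medians were 6.38 to 6.39, and 0 of its columns belonged to other samples.

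Values were log2 processed intensities minus the array's 75th percentile over non-control spots. Non-uniform spots were set to missing (none in the 39 genes), spots of a probe were averaged, 25578 of 55681 probes were kept, those flagged well above background on 3 or more of the 7 arrays, and a gene was its brightest kept probe. Lck-off and WT were compared by limma 3.58.1 (R 4.3.3, with 1.17.8 of its data.table package), moderated, two-sided, with adjusted p over all 18231 genes. The code was tested on simulated data of the same size. Promoters were searched with Python 3.11.15 and pandas 2.3.3, and figures were drawn with matplotlib 3.10.9. The 39 genes, the pathway and marker lists and the motifs were chosen with earlier results of these data known, so that counts over them are descriptions.

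Named genes were those called, those without overlap at an adjusted p under 0.25, and Mki67, Pcna, Ccnd2, Ccnd3, Cdk4, Cdk6 and Cdkn1a, and up to 6 called genes of smallest p in each pathway list; other members were summarised. Alternatives were normexp background correction (offset 50), quantile or median scaling, the deposited table, stricter and no filter, the mean of a gene's kept probes, a trended prior with robust moderation, array weights, slide row or replicate number as a block, each row alone and each array left out. Samples of the same number did not deviate together (r across genes 0.106, 0.0493 and -0.0083), so no pairing was used. These numbers are those of the sample titles; the deposited files number the WT samples otherwise (2, 3 and 4), and no pairing by those was tried. Exon and UTR positions of the probes are not used here.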

Additional observations from a re-analysis of the deposited data

Results flagged for a closer look

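In 2 of the 31 measured genes, 1 Lck-off array stood apart from the other 3 by Dixon's test at the 95% level (gap over range); chance gives this in about 1 in 20 groups. Foxm1 read -2.62 on Lck-off replicate 3 against -2.97 on the next array (gap over range 0.950). Mcm6 read 5.74 on Lck-off replicate 2 against 5.53 on the next (0.833). Both genes were not called.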

How the results depend on the processing

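The median difference of the 31 genes stayed below 0 in all 20 alternatives, between -0.29 and -0.15. Stmn1, Birc5 and Uhrf1 were called without each array in turn. Of the 31 measured genes, 11 were called lower with quantile scaling, 9 in the deposited table, 10 with trended and robust moderation and 10 with array weights, against 5. Of all 18231 genes, 926, 907, 1085 and 1037 were called lower in these settings in that order, against 834. The cause was not tested. Without 1 array, 4 to 7 of the 31 genes were called lower and 0 to 1 higher (0 without WT replicate 2). None was called higher with median scaling, with no filter or with the replicate block (0 in each). Each slide row alone, with fewer arrays, called 0 lower and 0 higher, at 7 and 13 lower and 0 and 1 higher at an unadjusted p under 0.05 by limma. In row 1 alone, Ccnd2 was -0.11 and Cdk4 0.0401, reversed. Over all genes, 1527 calls became 918 with median scaling, 717 with no filter, 105 and 0 in rows 1 and 2 (2520 and 2711 unadjusted), 374 with the replicate block and 960 to 1405 without 1 array; in row 1, 19% of calls were lower, against 54.6%. Pathway genes called lower (16) became 4 with median scaling, 3 with no filter, 0 in either row, 1 with the replicate block and 5 to 11 without 1 array. Those called higher (5) became 2, 1, 1 in row 1, 0 in row 2, 1 with the block and 2 to 4. The replicate block, on 3 numbers of which Lck-off replicate 4 has no partner, called Stmn1, Mki67, Birc5 and Uhrf1; numbers were not shown to pair samples.

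Genes near background (Top2a, Mki67, Tk1, Foxm1) are limited by signal over background, and their differences were smaller after normexp and in the deposited table. The diet of the WT mice is not stated in the labels.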

Other observations

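Pttg1, which encodes securin, the inhibitor of separase, had the widest difference of the pathway genes that was not called and was picked out after its values were seen. It read 4.34, 4.92, 4.94 and 4.27 in Lck-off and 1.59, 4.07 and 1.64 in WT. The groups did not overlap, but WT replicate 2 stood far above the other WT arrays (difference 2.18, SE 0.60, adjusted p = 0.0757 by limma). Cdkn1c (p57), a CDK inhibitor also picked out after its values were seen, read -1.99, -0.30, -1.77 and -0.22 in Lck-off and -2.57, -2.04 and -1.37 in WT. Its Lck-off arrays fell into a lower and a higher pair, and the groups overlapped (0.92, SE 0.53, adjusted p = 0.384 by limma).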
